A study of Mus musculus with 2 samples.

Results

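The genes described here are En1, En2, Gbx1, Gbx2, Otx1 and Otx2, the homeobox genes that place the border between midbrain and hindbrain. They were chosen by name, with earlier results of these data known, and are 6 of the 43346 genes measured. All 6 were found in both gene tables together with 16 transcripts. The tissue was hindbrain of healthy embryos of the mouse strain B6NCrl on day 15.5 of development, males and females pooled, and the whole study is 1 group of 2 libraries with no treated or mutant arm. Replicate 2 was a pool of 62 embryos and replicate 1 a pool of 78, so each value is a mean over many animals. Each library was made from 10 ng of total RNA longer than 200 nt with added spike-in RNA.

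Otx2 and Gbx2 act first at this border. Otx2 is made in the forebrain and midbrain and Gbx2 in the anterior hindbrain, each holds the other back, and the line where they meet becomes the isthmic organizer, a signalling strip that sends out Fgf8 and Wnt1. En1 and En2 are made on both sides of that line and are needed for the tectum of the midbrain and for the cerebellum. By late gestation the organizer has largely done its work and the same genes serve other cells: En1 marks V1 inhibitory interneurons and, with En2, midbrain dopamine neurons and cerebellar cells, Otx2 is made in choroid plexus epithelium and cerebellar granule precursors, Gbx1 is known from dorsal inhibitory neurons of the spinal cord, and Gbx2 is also known from the thalamus.

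All 6 proteins bind DNA through a homeodomain, and residue 50 of that domain does much to set the preferred bases: glutamine in the Engrailed and Gbx proteins, lysine in the Otx proteins. The stretch of the gene that encodes it, the homeobox, is shown for each member because it is what the members share. Its likeness between paralogues, given below, bears on whether their reads could be mixed up. It was read 5′ to 3′ on the coding strand from GRCm38 with GENCODE M21, has 180 bases for 60 residues, and has the codon of homeodomain residue 50 in capitals. Both Engrailed homeoboxes lie in exon 2 of 2, that of En1 at chr1:120606917-120607096 on the plus strand and that of En2 at chr5:28170163-28170342 on the plus strand.
En1: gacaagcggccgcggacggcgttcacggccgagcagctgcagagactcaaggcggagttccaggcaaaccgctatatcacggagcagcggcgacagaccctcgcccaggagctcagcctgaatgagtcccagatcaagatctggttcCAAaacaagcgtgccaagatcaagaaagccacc
En2: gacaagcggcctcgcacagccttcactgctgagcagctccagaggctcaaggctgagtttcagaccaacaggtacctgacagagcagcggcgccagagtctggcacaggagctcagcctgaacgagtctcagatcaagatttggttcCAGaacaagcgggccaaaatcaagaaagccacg

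Both Gbx homeoboxes also lie in exon 2 of 2, on the minus strand, that of Gbx1 at chr5:24504721-24504900 and that of Gbx2 at chr1:89928749-89928928.
Gbx1: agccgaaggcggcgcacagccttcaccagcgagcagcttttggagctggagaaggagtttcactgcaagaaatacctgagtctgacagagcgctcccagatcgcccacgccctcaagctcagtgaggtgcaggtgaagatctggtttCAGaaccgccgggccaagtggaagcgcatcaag
Gbx2: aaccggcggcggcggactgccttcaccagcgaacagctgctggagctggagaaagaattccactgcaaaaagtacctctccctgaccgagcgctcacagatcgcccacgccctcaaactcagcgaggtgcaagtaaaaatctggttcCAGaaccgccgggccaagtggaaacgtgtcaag

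The Otx homeoboxes are split by an intron between exon 4 and exon 5 of 5, on the minus strand, within chr11:21997017-21998507 for Otx1 and within chr14:48659285-48661436 for Otx2. Only the joined exon bases are printed.
Otx1: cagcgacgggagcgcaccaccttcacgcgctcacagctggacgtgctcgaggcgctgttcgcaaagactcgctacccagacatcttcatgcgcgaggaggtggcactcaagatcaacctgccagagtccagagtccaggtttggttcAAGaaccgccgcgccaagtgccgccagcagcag
Otx2: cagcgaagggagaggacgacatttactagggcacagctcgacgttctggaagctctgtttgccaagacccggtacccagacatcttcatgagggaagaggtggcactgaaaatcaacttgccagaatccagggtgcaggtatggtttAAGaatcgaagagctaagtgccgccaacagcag

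Codon 50 was CAA in En1, CAG in En2, Gbx1 and Gbx2, and AAG in Otx1 and Otx2. En1 and En2 had the same base at 150 of 180 positions (83.33%), Gbx1 and Gbx2 at 152 (84.44%), and Otx1 and Otx2 at 144 (80%). The 12 pairs of genes from different families shared 77 to 106 bases (42.78% to 58.89%). The deposited estimated counts of En1, En2, Gbx1, Otx1 and Otx2 were whole numbers in both libraries, while those of Gbx2 were not.

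The libraries held 43263959 estimated gene counts in replicate 2 and 40020322 in replicate 1, and spike-ins took 3.09% of all counts in replicate 2 against 2.86% in replicate 1. TPM is a transcript level corrected for length and depth, and protein-coding genes near 1 TPM had typically 60 counts in replicate 2 against 53.9 in replicate 1 (medians). Markers of the labelled tissue were present: all 12 hindbrain genes, led by Hoxb5 at 113.1 TPM in replicate 2 against 91.97 in replicate 1 and Hoxa5 at 93.25 TPM in replicate 2 against 83.85 in replicate 1, were at 1 TPM or more in both libraries, as were 9 of 13 midbrain, 9 of 9 thalamus and 5 of 16 forebrain genes. Many of these genes are made in more than 1 region. With 2 libraries of 1 group there is no test of a condition, so no p-value is printed, and a difference between them has no replicate check.

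Gbx2 and Otx2 were the abundant members, En2 lay near 1 TPM, the level used here for detection, and 5 of the 6 reached 1 TPM in both libraries. Among all nuclear protein-coding genes 63.1% did so, and 5 of 6 genes cannot be set apart from that background. The median protein-coding gene stood at 5.7 TPM in replicate 2 against 5.67 TPM in replicate 1, which puts 3 members above it and 3 below it by their means.

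Gbx2, the repressor on the hindbrain side, had 34.7 TPM in replicate 2 (1673.2 estimated counts) against 30.97 TPM in replicate 1 (1389.5), with a mean of 32.8 ± 2.64 TPM (SD, n = 2). It was the most abundant of the 6 in each library and stood above 77.65% of protein-coding genes. The gene (ENSMUSG00000034486.8) lies at chr1:89927956-89931179 on the minus strand, and its authors' interval of the TPM, whose level is not stated, was 32.05 to 35.92 in replicate 2 and 28.4 to 32.23 in replicate 1, so the intervals just overlap.

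Otx2, the activator of forebrain and midbrain identity and also a choroid plexus factor, had 17.24 TPM in replicate 2 (813 counts) against 28.14 TPM in replicate 1 (1343), with a mean of 22.7 ± 7.71 TPM (SD, n = 2). It was second in each library. The gene (ENSMUSG00000021848.11) lies at chr14:48657677-48673819 on the minus strand, and the intervals of its TPM, 15.94 to 18.91 in replicate 2 and 26.27 to 29.81 in replicate 1, were far apart.

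Gbx1, the paralogue of Gbx2, had 7.09 TPM in replicate 2 (654 counts) against 5.4 TPM in replicate 1 (472), with a mean of 6.25 ± 1.2 TPM (SD, n = 2). It stood near the middle of the protein-coding genes, above 51.01% of them. The gene (ENSMUSG00000067724.5) lies at chr5:24502757-24527202 on the minus strand.

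En1 had 3.03 TPM in replicate 2 (209 counts) against 6.37 TPM in replicate 1 (416), with a mean of 4.7 ± 2.36 TPM (SD, n = 2). The replicate 1 level of En1 was above that of Gbx1 and the replicate 2 level below it, so the order of the pair differed between the pools. The gene (ENSMUSG00000058665.8) lies at chr1:120602418-120607992 on the plus strand.

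Otx1, the Otx gene of cortex and sense organs, had 1.56 TPM in replicate 2 (113 counts) against 2.86 TPM in replicate 1 (224), with a mean of 2.21 ± 0.919 TPM (SD, n = 2). En2, the Engrailed gene most tied to cerebellar growth and foliation, had 0.48 TPM in replicate 2 (45 counts) against 1.07 TPM in replicate 1 (95), with a mean of 0.775 ± 0.417 TPM (SD, n = 2). En2 was the lowest member in each library and the one that passed 1 TPM in replicate 1 only. Otx1 (ENSMUSG00000005917.11) lies at chr11:21994764-22002897 on the minus strand and En2 (ENSMUSG00000039095.8) at chr5:28165694-28172166 on the plus strand.

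By mean TPM the order was Gbx2, Otx2, Gbx1, En1, Otx1, En2. Of the 5 neighbouring pairs in that order, Gbx1 and En1 were the one pair whose values overlapped between libraries: Gbx1 was 2.34-fold En1 in replicate 2 and 0.848-fold in replicate 1. Gbx2 and Otx2 did not overlap, yet Gbx2 was 2.01-fold Otx2 in replicate 2 and 1.1-fold in replicate 1, so the size of that step depends on the pool.

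**Figure D1:**
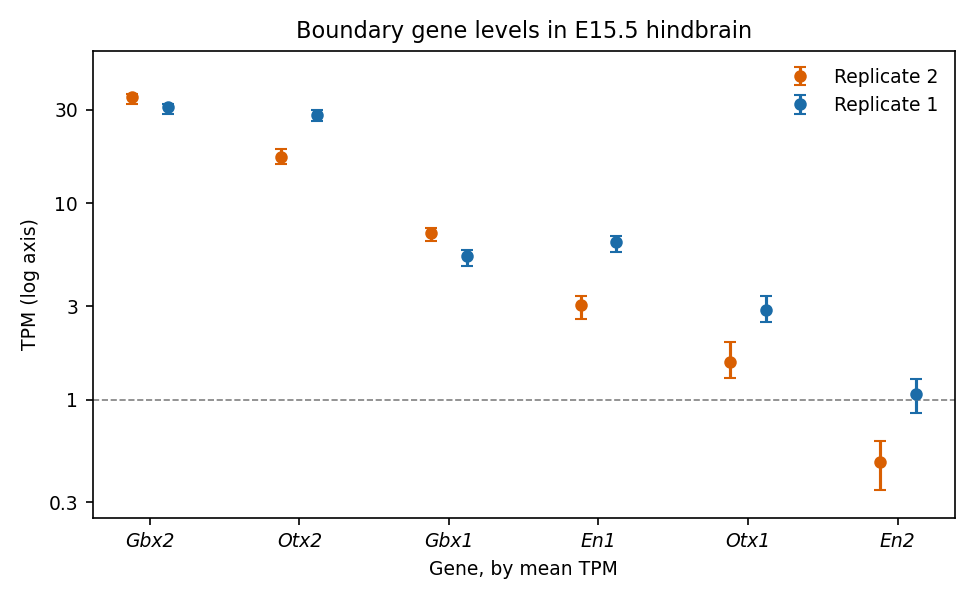
TPM of each boundary gene on a log axis, with replicate 2 left of replicate 1; bars are the authors' interval of the TPM within each library and the dashed line marks 1 TPM. The orange replicate 2 points lie below the blue replicate 1 points for Otx2, En1, Otx1 and En2, for example 3.03 against 6.37 TPM for En1, and above them for Gbx2 and Gbx1.

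Within each family 1 paralogue held most of the RNA, and its share hardly differed between the pools. En1 held 86.32% of the summed En1 and En2 TPM in replicate 2 and 85.62% in replicate 1 (mean 85.97% ± 0.5, SD, n = 2). Gbx1 held 16.97% of the Gbx sum in replicate 2 and 14.85% in replicate 1 (mean 15.91% ± 1.5), and Gbx2 was 4.89-fold Gbx1 in replicate 2 against 5.74-fold in replicate 1. Otx1 held 8.298% of the Otx sum in replicate 2 and 9.226% in replicate 1 (mean 8.762% ± 0.656), and Otx2 was 11.05-fold Otx1 in replicate 2 against 9.84-fold in replicate 1.

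The family sums did differ. The Engrailed pair summed to 3.51 TPM in replicate 2 against 7.44 TPM in replicate 1, the Otx pair to 18.8 TPM in replicate 2 against 31 TPM in replicate 1, and the Gbx pair to 41.79 TPM in replicate 2 against 36.37 TPM in replicate 1. Gbx RNA was thus 2.22-fold Otx RNA in replicate 2 and 1.17-fold in replicate 1. In each pool the hindbrain-side family was the larger, and both members of each pair moved the same way between pools.

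The ratio of the libraries was taken as the log2 of replicate 2 over replicate 1 after scaling the estimated counts. Its 95% interval is an exact Clopper-Pearson interval that covers counting error only. Of the 6 members 4 were 1.5-fold or more lower in replicate 2, and none was as much higher. Of the 17048 genes whose mean count reached 20, 4.22% were that much lower in replicate 2 and 2.23% that much higher. The members, and the lists given below, were chosen with earlier results of these data known, so their counts describe these genes only. In bulk tissue fewer cells of a type and less RNA per cell cannot be told apart.

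En1 had a log2 ratio of -1.10 (interval -1.35 to -0.86), with replicate 1 2.15-fold higher. En2 had -1.18 (-1.73 to -0.66) and the widest interval, since it rests on the fewest counts. Both Engrailed genes were thus lower in replicate 2 by about the same factor. Otx1 had -1.09 (-1.44 to -0.76) and Otx2 -0.83 (-0.96 to -0.71). For these 4 genes the whole counting interval lay beyond the 1.5-fold line.

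The Gbx genes went the other way and by less. Gbx1 had a log2 ratio of 0.36 (0.19 to 0.53), 1.28-fold higher in replicate 2. Gbx2 had 0.16 (0.05 to 0.26), 1.12-fold higher in replicate 2. Neither reached 1.5-fold, and both intervals lay above 0.

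How unusual such ratios are depends on abundance. Genes with a mean count of 100 to 1000, where En1, Otx1 and Gbx1 lie, had ratios with an SD of 0.35, and the central 95% of those 5663 genes ran from -0.62 to 0.47. En1 and Otx1 lay below that range and Gbx1 inside it. For the 8181 genes whose mean count reached 1000 the central 95% ran from -0.27 to 0.27, with Otx2 below it and Gbx2 inside it. Among the 3204 genes with a mean count of 20 to 100, where En2 lies, 16.3% were 1.5-fold or more lower in replicate 2, and the central 95% ran from -1.40 to 1.00, with En2 inside it.

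**Figure D2:**
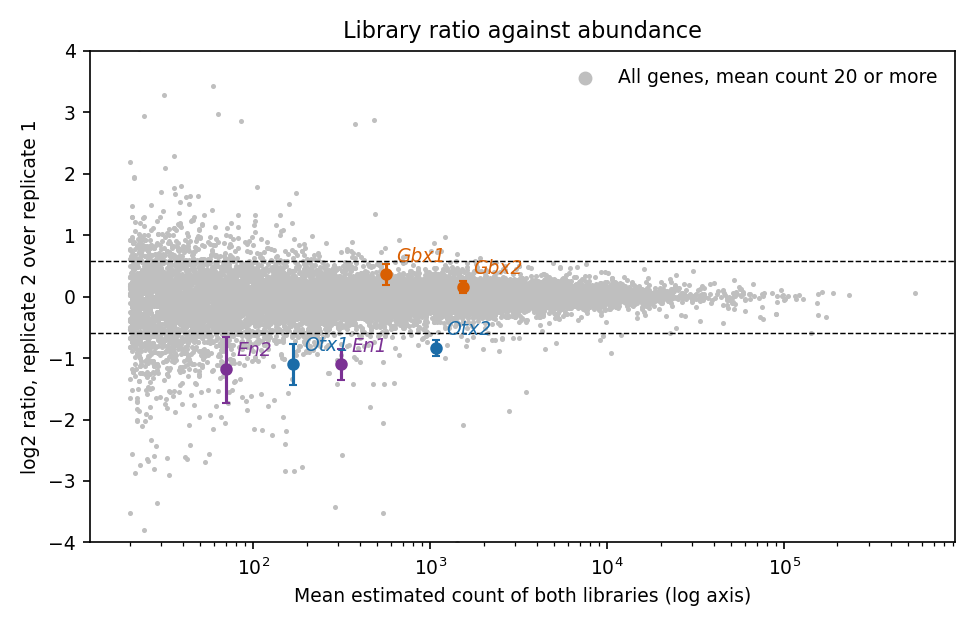
Log2 ratio of replicate 2 over replicate 1 against the mean estimated count of both libraries (log axis) for the 17048 genes whose mean count reached 20 in grey, with the 6 boundary genes coloured; bars are 95% counting intervals, dashed lines mark 1.5-fold, and 24 genes lie outside the axis. En1, En2, Otx1 and Otx2 sit between -1.18 and -0.83, below the lower dashed line, while Gbx1 and Gbx2 sit at 0.36 and 0.16.

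En1, En2 and Gbx1 each had 1 transcript in the tables, so the values above are also those of their transcripts. Gbx2 had a pair. The spliced coding transcript Gbx2-201 had 24.4 TPM in replicate 2 against 20.74 TPM in replicate 1, which was 70.32% of the gene in replicate 2 and 66.95% in replicate 1. Gbx2-202, a retained-intron model, had 10.3 TPM in replicate 2 against 10.24 TPM in replicate 1, which was 29.68% in replicate 2 and 33.05% in replicate 1. By these estimates nearly all of the difference between pools lay in the coding transcript. Its authors' intervals just overlapped (21.99 to 25.75 in replicate 2 and 18.57 to 22.11 in replicate 1). Those of Gbx2-202 were wide, 7.55 to 12.61 in replicate 2 and 7.56 to 12.43 in replicate 1. How the difference was split between the 2 models is therefore uncertain.

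Otx1-201, the main coding transcript, had 1.4 TPM in replicate 2 against 2.47 TPM in replicate 1, which was 89.74% of Otx1 in replicate 2 and 86.36% in replicate 1. The retained-intron model Otx1-203 had 0.06 TPM in replicate 2 (8.51 estimated counts) and 0.39 TPM in replicate 1 (52.19). The short coding model Otx1-202 had 0.1 TPM in replicate 2 and was listed at 0 in replicate 1, with 1.83 counts behind the higher value. The intron-retaining and the spliced form of Otx1 were both lower in replicate 2.

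Otx2 had 8 transcripts in the tables, against 11 in GENCODE M21, and 6 were at 0.1 TPM or more in a library. The leading model, Otx2-201, had 8.82 TPM in replicate 2 against 16.64 TPM in replicate 1, which was 51.16% of the gene in replicate 2 and 59.13% in replicate 1. Otx2-202 had 5.1 TPM in replicate 2 against 7.29 TPM in replicate 1, which was 29.58% in replicate 2 and 25.91% in replicate 1. Their order was the same in both pools. Otx2-205 had 1.32 TPM in replicate 2 against 1.55 TPM in replicate 1, Otx2-208 had 1 TPM in replicate 2 against 0.56 in replicate 1, Otx2-203 had 0.81 TPM in replicate 2 against 0.78 in replicate 1, and Otx2-204 had 0.19 TPM in replicate 2 against 1.32 in replicate 1. Otx2-206 and Otx2-207 were listed at 0 in both. The minor models rest on few reads, 8.44 to 55.83 estimated counts per library, and the authors' intervals of Otx2-205, from about 0 to 1.92 TPM in replicate 2 and to 2.1 TPM in replicate 1, reach nearly to 0.

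**Figure D3:**
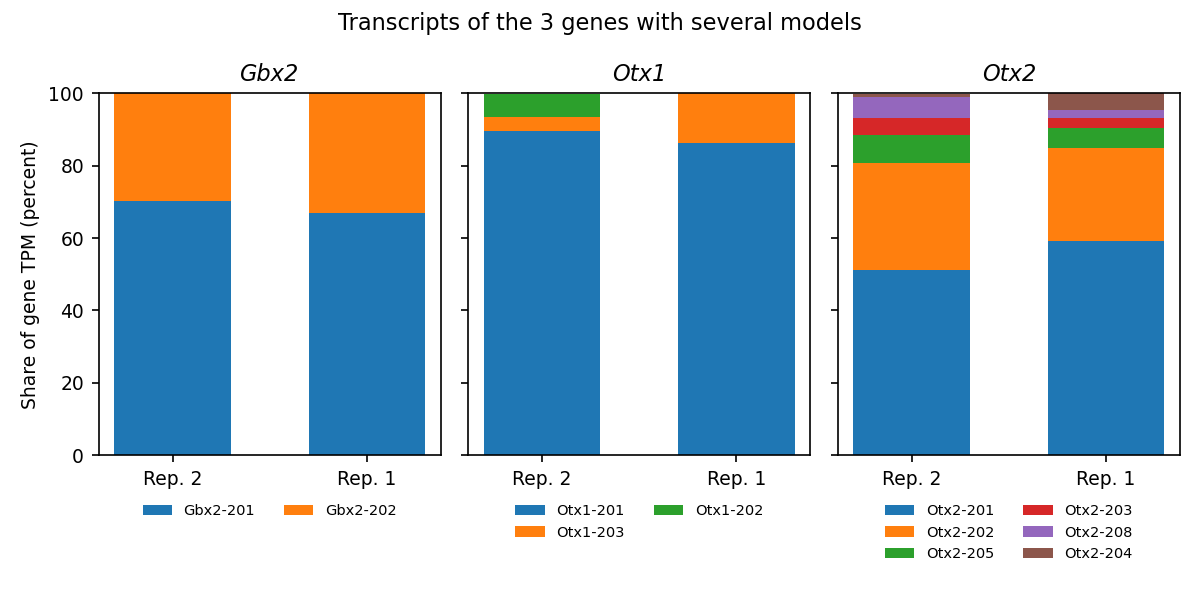
Share of the TPM of Gbx2, Otx1 and Otx2 held by each transcript (percent, stacked bars from 0 to 100) in replicate 2, left, and replicate 1, right, of each panel. Gbx2-201 holds 70.32% in replicate 2 and 66.95% in replicate 1, Otx1-201 holds 89.74% in replicate 2 and 86.36% in replicate 1, and Otx2-201 holds 51.16% in replicate 2 and 59.13% in replicate 1.

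Mouse Otx2 is transcribed from several starts, and its models were grouped by the position of their first base. The 4 models that begin at the distal start, at positions 48667508 to 48667644 of chromosome 14, summed to 7.42 TPM in replicate 2 against 9.4 TPM in replicate 1, with a log2 ratio of -0.44. The 2 models of the middle start, at 48665106 to 48665521, summed to 9.63 TPM in replicate 2 against 17.42 TPM in replicate 1, with a log2 ratio of -0.93. The proximal start, at 48662872, had 0.19 TPM in replicate 2 against 1.32 TPM in replicate 1, with a log2 ratio of -2.73. The middle start held the larger part of Otx2 RNA in each pool, 55.86% in replicate 2 and 61.9% in replicate 1, and the distal start held 43.04% in replicate 2 and 33.4% in replicate 1. By these sums all 3 groups were lower in replicate 2, by unequal amounts that were not tested. The authors' intervals lay apart for Otx2-201, at 7.5 to 9.69 in replicate 2 and 14.78 to 17.71 in replicate 1. They overlapped for the main distal model Otx2-202, at 3.44 to 6.16 in replicate 2 and 5.23 to 8.53 in replicate 1. Those of the proximal model Otx2-204 also overlapped, at 0.015 to 0.86 in replicate 2 and 0.55 to 2.41 in replicate 1. The distal model Otx2-208 was higher in replicate 2. The groups share their later exons, so reads there were divided among them by the authors' estimate, and Otx2-201, the main model of the middle start, was 2284 nt long in the tables but 2144 nt in GENCODE M21, so the position given for its start is uncertain.

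The sequence before the most distal and the middle start is shown because the starts differ in letters that homeodomain proteins are known to prefer. RefSeq (GRCm38.p6) gave promoter windows for En1, Gbx2 and Otx2. En2, Gbx1 and Otx1 had none. The windows of 300 bases were searched on both strands for TAATTA, a core bound by homeodomains with glutamine at residue 50, for TAATCC, the core bound by Otx proteins, which reads GGATTA on the other strand, and for TATAAA. Of all 32851 windows, 5.291% held TAATTA, 7.062% held TAATCC and 13.62% held TATAAA. The windows of En1, of Gbx2, of a second distal start of Otx2 at 48667508 and of its proximal start held none of them. The most distal start, at 48667644, is that of Otx2-208, a minor model with 1 TPM in replicate 2 against 0.56 in replicate 1. The main distal model, Otx2-202, begins at 48667513, beside the second distal start, whose window held none of these letters. The 250 bases before the most distal Otx2 start, chr14:48667645-48667894 on the minus strand, held TATAAA and TAATTA, in capitals:
Otx2 distal start: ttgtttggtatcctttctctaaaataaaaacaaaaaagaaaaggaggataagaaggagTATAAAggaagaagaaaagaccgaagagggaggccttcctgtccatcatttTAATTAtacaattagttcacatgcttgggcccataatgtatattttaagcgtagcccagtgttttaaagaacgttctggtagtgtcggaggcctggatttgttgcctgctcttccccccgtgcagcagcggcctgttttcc

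The window of the middle start held TAATTA 3 times and GGATTA once. Both kinds of core stood together in 0.4992% of all windows (164). The first pair, in capitals, lies at chr14:48665315-48665343 on the minus strand, 206 nt before the RefSeq start:
Otx2 middle start: TAATTAagggacgtgtgcccctcGGATTA
These matches describe letters only, and binding was not measured.

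Genes that overlap or flank a member gave a local view. Next to En1, 13748 bp away on the same strand, lies the lincRNA 2610027F03Rik, with 1.38 TPM in replicate 2 (17 counts) and 7.84 TPM in replicate 1 (95 counts; log2 ratio -2.56, interval -3.43 to -1.84). Cnpy1, 28653 bp from En2 on the opposite strand, is known in zebrafish as a feedback regulator of Fgf signalling at the isthmus. Cnpy1 had 29.82 TPM in replicate 2 against 52.85 TPM in replicate 1 (log2 ratio -0.88, interval -0.96 to -0.79). Both 2610027F03Rik and Cnpy1 were lower in replicate 2, as were En1 and En2. On their other sides, Insig1, a regulator of sterol synthesis, had 61.89 TPM in replicate 2 against 63.96 TPM in replicate 1, and Marco, a macrophage receptor, had 4 counts in replicate 2 against 2 in replicate 1, too few to compare.

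The well expressed neighbours of the Gbx genes and of Otx1 had log2 ratios near 0, at 0.08 for Agap3, 0.02 for Agap1 and -0.12 for Ehbp1. Agap3, 710 bp from Gbx1, had 37.99 TPM in replicate 2 against 35.09 TPM in replicate 1, and Asb10 had 0.11 TPM in replicate 2 against 0.21 in replicate 1. Agap1, beside Gbx2, had 22.21 TPM in replicate 2 against 21.25 TPM in replicate 1, and Asb18 had 55 counts in replicate 2 against 53 in replicate 1, with a log2 ratio of -0.06 although its TPM was 0.89 in replicate 2 against 0.54 in replicate 1. Ehbp1, 2931 bp from Otx1, had 15.01 TPM in replicate 2 against 15.95 TPM in replicate 1, and Rpl15-ps1 was listed at 0.

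A noncoding gene on the opposite strand overlaps each of the 2 abundant members. D130058E05Rik overlaps Gbx2 by 946 bp and had 3.27 TPM in replicate 2 against 2.2 TPM in replicate 1, with a log2 ratio of 0.24 (-0.09 to 0.56). Otx2os1 overlaps Otx2 by 5112 bp and had 2.13 TPM in replicate 2 (41 counts) and 3.13 TPM in replicate 1 (58), with a log2 ratio of -0.60 (-1.22 to -0.01). Each partner leaned the way of the member it overlaps. The sources used here do not say whether counting used strand. The estimated counts of Gbx2 and D130058E05Rik were not whole in either library (182.8 for D130058E05Rik in replicate 2 against 143.5 in replicate 1), and their level is uncertain to the extent that reads were divided between them. Those of Otx2 and Otx2os1 were whole in both libraries. Gm23469, left of Otx2, was listed at 0. Gm43610, Gm49154 and Gm48909 were not analysed here.

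Of 15 signals of the isthmic organizer and their feedback genes 13 were detected, and of 14 compared 2 were 1.5-fold or more higher in replicate 2 and 1 lower, with a median log2 ratio of 0.18 against 0.0017 over all genes. Fgf8, the organizer's main ligand, had 0.39 TPM in replicate 2 against 0.36 TPM in replicate 1, and Wnt1, made on the midbrain side of the line, had 2.04 TPM in replicate 2 against 1.53 in replicate 1. The Fgf receptor Fgfr1 had 36.11 TPM in replicate 2 against 30.63 TPM in replicate 1, and Spry2, an inhibitor that Fgf signals switch on, had 28.47 TPM in replicate 2 against 28.43 in replicate 1. Among the Fgf ligands, Fgf15 and Fgf17 leaned with the Gbx genes and Fgf18 did not. Fgf15 had 31.6 TPM in replicate 2 against 18.39 TPM in replicate 1 (log2 ratio 0.75, interval 0.63 to 0.88). Fgf17 had 1.04 TPM in replicate 2 against 0.54 in replicate 1 (0.91, 0.16 to 1.73). Fgf18 had 5.78 TPM in replicate 2 against 5.91 in replicate 1 (-0.09, -0.42 to 0.24). Cnpy1 was the 1 gene of the list past 1.5-fold in the direction of the Engrailed genes.

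Of 12 other transcription factors and corepressors of the border 10 were detected. Among the most abundant were Meis2, a homeodomain cofactor, at 112.8 TPM in replicate 2 against 112.6 TPM in replicate 1, and Irx2, which in the chick helps to place the cerebellum, at 28.36 TPM in replicate 2 against 30.45 in replicate 1. Hes3, which keeps isthmic progenitors from becoming neurons, had 0.32 TPM in replicate 2 against 2.05 TPM in replicate 1 (log2 ratio -2.69, interval -3.62 to -1.93). Sall4, a zinc finger factor of progenitors, had 0.36 TPM in replicate 2 against 1.98 in replicate 1 (-2.16, -2.72 to -1.66). These were the 2 genes of the list that were 1.5-fold or more lower in replicate 2, and none was higher. The list's median ratio was -0.06.

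Partners and targets of the Engrailed proteins were detected in 11 of 11 cases, and 1 of them was 1.5-fold or more lower in replicate 2. It was Efna5, an ephrin that guides retinal axons in the tectum and that Engrailed switches on in the chick, with 31.11 TPM in replicate 2 against 55.27 TPM in replicate 1 (log2 ratio -0.86, interval -0.92 to -0.79). Map1b, a microtubule protein of growing axons, had 624.6 TPM in replicate 2 against 589.4 TPM in replicate 1. The respiratory chain subunits Ndufs3 and Ndufs1, whose translation Engrailed proteins raise in midbrain dopamine neurons, had 169.5 TPM in replicate 2 against 177 in replicate 1, and 115.1 TPM in replicate 2 against 110.6 in replicate 1. The log2 ratios of Map1b, Ndufs3 and Ndufs1 were 0.05, -0.02 and -0.01.

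Midbrain markers mostly leaned the way of the Engrailed and Otx genes, with 9 of 12 compared below 0 and 3 above it. This list, like the others, was drawn up with earlier results of these data known, so its counts describe these genes only. Of 13 midbrain genes 9 were detected, and of 12 compared 4 were 1.5-fold or more lower in replicate 2 and 0 higher, with a median log2 ratio of -0.46. Their summed level was 90.49 TPM in replicate 2 against 164.8 TPM in replicate 1, and none of the 13 was at 0 in a library. Tfap2d, an AP-2 factor of the dorsal midbrain, had 2.2 TPM in replicate 2 against 24.04 TPM in replicate 1 (log2 ratio -3.52, interval -3.85 to -3.22). Lhx9, a LIM homeobox gene of the tectum and thalamus, had 12.78 TPM in replicate 2 against 50.75 in replicate 1 (-1.87), and Tal2, needed for midbrain inhibitory neurons, had 0.65 TPM in replicate 2 against 4.39 in replicate 1 (-2.77). Pax7, a marker of dorsal midbrain, had 0.32 TPM in replicate 2 against 0.87 in replicate 1 (-1.34). Not all midbrain genes were 1.5-fold lower. Nr4a2, a factor of dopamine and other neurons, had 19.91 TPM in replicate 2 against 13.3 TPM in replicate 1 (0.43). Pou4f1, made in tectal, sensory and precerebellar neurons, had 34.34 TPM in replicate 2 against 47.27 in replicate 1 (-0.45). The part of midbrain RNA in the ratios of En1, En2, Otx1 and Otx2 was not tested.

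Markers of thalamus, the forebrain region next to the midbrain, also differed. All 9 were detected, 4 were 1.5-fold or more lower in replicate 2 and 0 higher, the median log2 ratio was -0.13, and the sum was 248.7 TPM in replicate 2 against 358.5 TPM in replicate 1. Tcf7l2, a Wnt effector of thalamus and midbrain, had 25.36 TPM in replicate 2 against 77.34 TPM in replicate 1 (log2 ratio -1.55), and Lhx2 had 9.96 TPM in replicate 2 against 50.71 in replicate 1 (-2.09). The others past 1.5-fold were Lhx9, given above, and Lef1, another Wnt effector, with 8.86 TPM in replicate 2 against 13.63 in replicate 1 (-0.63). Foxp2 had 46.37 TPM in replicate 2 against 30.27 in replicate 1 (0.55), and Slc17a6, a glutamate transporter of many neurons, had 72.27 TPM in replicate 2 against 77.29 in replicate 1. Of the 9 genes 5 had a ratio below 0 and 4 above it. Gbx2, itself a thalamic gene, had a ratio of 0.16, within the list's range of -2.09 to 0.55. The part of thalamic RNA in the ratios of the members was not tested.

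The forebrain list was split, with 7 of 15 genes 1.5-fold or more higher in replicate 2 and 3 lower. Dlx1, a factor of forebrain inhibitory neurons, had 5.52 TPM in replicate 2 against 0.3 TPM in replicate 1 (log2 ratio 4.40, interval 3.64 to 5.44). Neurod6 had 35.36 TPM in replicate 2 against 23.64 in replicate 1, and Neurod2 23.12 TPM in replicate 2 against 16.76 in replicate 1. The pool with less Otx RNA thus had more of some forebrain RNAs. Lhx2, Lef1 and Rax were the 3 lower ones, and the list summed to 95.39 TPM in replicate 2 against 110.5 in replicate 1. Nkx2-1 was listed at 0 in replicate 1. Their part in the ratios of the members was not tested.

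Hindbrain genes were even between the pools: 0 of 12 passed 1.5-fold in either direction, with a median log2 ratio of 0.11 and sums of 375.6 TPM in replicate 2 against 327.6 TPM in replicate 1. Hoxb2, a rhombomere gene, had a log2 ratio of 0.30 (26.58 TPM in replicate 2 against 21.46 in replicate 1). Hoxd3 had 39.85 TPM in replicate 2 against 41.38 TPM in replicate 1.

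**Figure D4:**
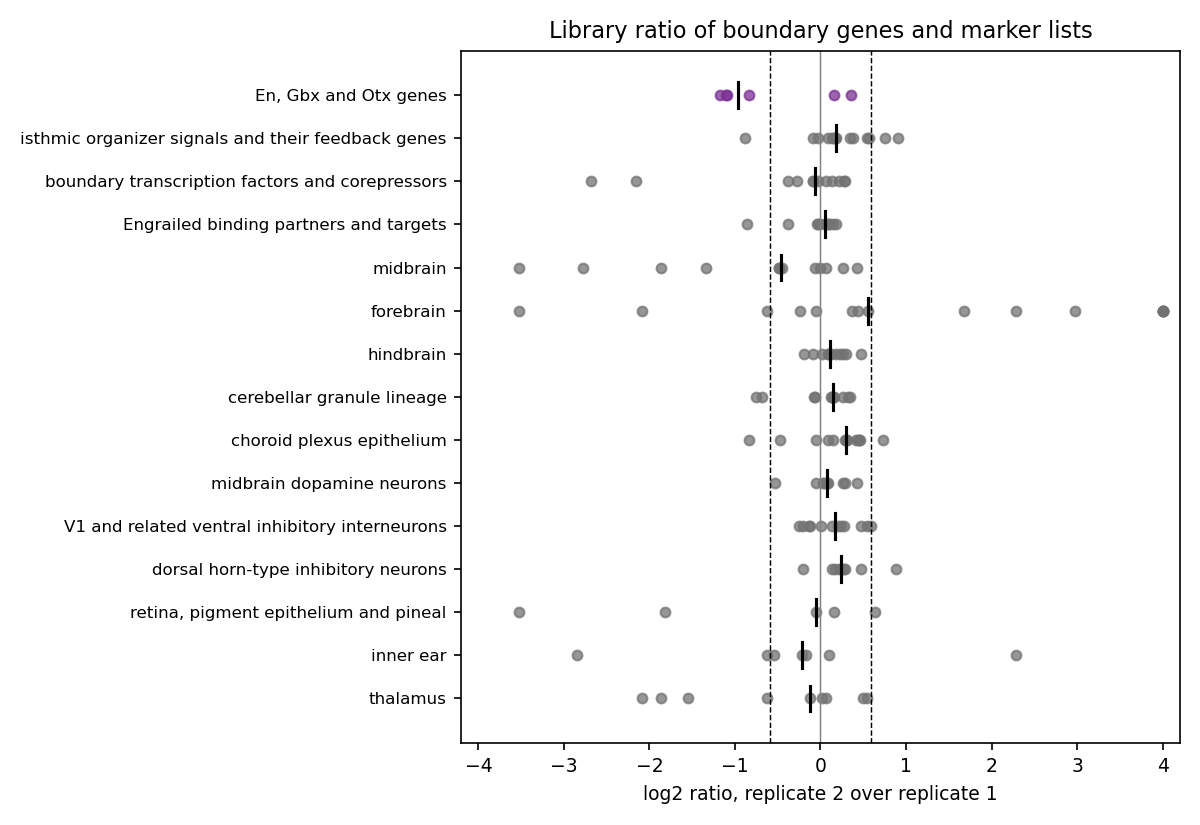
Log2 ratio of replicate 2 over replicate 1 for the 6 boundary genes (purple, top row) and for the genes of 14 marker lists (grey), with the median of each row as a black bar and dashed lines at 1.5-fold; genes of the forebrain row that lie beyond 4, Dlx1 among them, are drawn at the edge. The midbrain row has a median of -0.46 and 4 genes below the lower line, and the hindbrain row has a median of 0.11 and 0 genes past either line.

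Several cell types of the hindbrain sample are known to make these genes late in gestation. Choroid plexus epithelium, which makes Otx2, was present in both libraries, led by Ttr, the thyroid hormone carrier of cerebrospinal fluid, at 1183.2 TPM in replicate 2 against 867.6 TPM in replicate 1 (log2 ratio 0.42). Igfbp2 had 374.3 TPM in replicate 2 against 379 in replicate 1, and Enpp2 64.02 TPM in replicate 2 against 58.65 in replicate 1. Otx2 is a member of that list, and without it 12 of 13 genes were detected, 11 of the 13 had a ratio above 0, and the median was 0.30. Folr1, a folate receptor of this epithelium, was the 1 gene past 1.5-fold, with 41.43 TPM in replicate 2 against 23.84 TPM in replicate 1 (0.73), and Prlr had 0.97 TPM in replicate 2 against 1.4 in replicate 1. Over all genes 8611 of 17048 had a ratio above 0, and Otx2, at -0.83, was the 1 gene of the list past 1.5-fold in the other direction from Folr1.

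Cerebellar granule precursors, which are known to make Otx1, Otx2 and En genes, were marked by 12 of 12 detected genes. Meis1 had 144.7 TPM in replicate 2 against 128 TPM in replicate 1, Mab21l1 had 123.6 TPM in replicate 2 against 127.6 in replicate 1, and Mycn, which drives their division, had 57.48 TPM in replicate 2 against 50.6 in replicate 1. Those 1.5-fold or more lower in replicate 2 were 2 genes: Cntn2, an adhesion protein of early granule axons, with 22.8 TPM in replicate 2 against 37.63 in replicate 1 (log2 ratio -0.76), and Barhl1, with 35.11 TPM in replicate 2 against 48.49 in replicate 1 (-0.68). The list's median ratio was 0.14.

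V1 interneurons, the cells that En1 marks in ventral hindbrain and spinal cord, and related types were represented by 11 of 12 genes. Of 12 compared, 1 was 1.5-fold or more higher in replicate 2 and 0 lower, with a median log2 ratio of 0.17. Gad1, which makes GABA, had 83.11 TPM in replicate 2 against 82.31 TPM in replicate 1, Lhx1 had 44.53 TPM in replicate 2 against 30 in replicate 1 (0.48), and Foxp2, a factor of a large V1 group, had 0.55 as its ratio. The gene past 1.5-fold was Chrna2, at 0.38 TPM in replicate 2 against 0.25 in replicate 1, with a counting interval that spans 0 (-0.20 to 1.44). In all, 8 of the 12 had a ratio above 0 and 4 below it, the lowest being Foxd3 at -0.25. En1, at -1.10, lay below all of them. Foxp2 is also in the thalamus list, and the part of V1 cells in the ratio of En1 was not tested.

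Midbrain dopamine neurons depend on En1 and En2. Of 10 of their genes 8 were detected, 0 of 9 passed 1.5-fold, and the median log2 ratio was 0.07. Th, the rate-limiting enzyme of dopamine synthesis that noradrenergic cells also make, had 8.93 TPM in replicate 2 against 8.53 TPM in replicate 1, and Slc18a2, the vesicular monoamine transporter, had 14.79 TPM in replicate 2 against 13.77 in replicate 1. Pitx3, which is specific to the midbrain group in the brain, had 0.3 TPM in replicate 2 (6 counts) and 0.24 TPM in replicate 1 (3). Lmx1b had 4.98 TPM in replicate 2 against 3.95 in replicate 1. At that depth a difference in Pitx3 was not detectable.

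Dorsal inhibitory neurons, the type in which Gbx1 is known, had 9 of 9 genes detected, 1 of them 1.5-fold or more higher in replicate 2 and 0 lower, and a median log2 ratio of 0.24. Tfap2b had 62.65 TPM in replicate 2 against 52.07 TPM in replicate 1, Gad2, the other GABA-making enzyme, had 32.89 TPM in replicate 2 against 31.72 in replicate 1, and Lbx1, which sets this fate, had 9.82 TPM in replicate 2 against 7.89 in replicate 1 (0.28). The gene past 1.5-fold was Ptf1a, a factor of inhibitory fate, with 2.18 TPM in replicate 2 against 1.15 in replicate 1 (0.88). Gbx1, at 0.36, lay within the range of this list, -0.20 to 0.88. It also lay within those of the V1 list, -0.25 to 0.59, and the hindbrain list, -0.19 to 0.47. Its ratio therefore does not set the dorsal list apart.

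Markers of other tissues that make Otx genes were mostly below 1 TPM. Of 9 genes of retina, pigment epithelium and pineal that could be matched, 2 were detected, among them Mitf, a pigment cell factor, at 1.85 TPM in replicate 2 against 1.7 in replicate 1. Pmel had 0.79 TPM in replicate 2 against 0.49 in replicate 1, Crx was listed at 0 in replicate 2 and Rpe65 in replicate 1, and 1 gene of that list did not match a symbol. Of 5 compared, Pmel was 1.5-fold or more higher in replicate 2 and Rax and Tyrp1 lower. The counting interval of Pmel spans 0 (-0.08 to 1.41). Of 10 inner ear genes 3 were detected, led by Gata3 at 23.28 TPM in replicate 2 against 25.88 TPM in replicate 1 and Myo7a at 15.47 TPM in replicate 2 against 13.2 in replicate 1, both made in brain as well. Pou4f3, a hair cell factor also made in midbrain neurons, had 0.71 TPM in replicate 2 against 5.06 TPM in replicate 1 (log2 ratio -2.85). Of 7 inner ear genes compared, Pou4f3 and Hmx3 were 1.5-fold or more lower in replicate 2 and Dlx5 higher. The counting interval of Hmx3 spans 0 (-1.59 to 0.28). The eye and pineal genes summed to 5.85 TPM in replicate 2 against 6.85 in replicate 1, and the inner ear genes to 43.16 TPM in replicate 2 against 47.03 in replicate 1.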

How the data were processed

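Total RNA of day 15.5 mouse hindbrain was measured in 2 libraries of 1 group, which the labels call biological replicates. The authors' estimated counts per gene and transcript, their TPM and FPKM, and the percent of a gene's TPM held by each transcript, are used as deposited. They were made from transcriptome alignments of 1 library each on mm10 with GENCODE M4, per the file headers and accompanying notes. Not given in the sources used here are the aligner, the quantifier, the strand of counting and the level of the deposited TPM interval. TPM was scaled by the authors over every feature, spike-ins included.

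The tables held 43346 genes, of which 42462 matched GENCODE M21 (GRCm38, the same assembly) by identifier without version. The unmatched held 0.200% of counts. The 97 spike-in and 26248 numeric features stayed out of library sizes. A gene was detected where both libraries had 1 TPM or more. Ratios used TMM in edgeR 4.0.16 (R 4.3.3), a prior count of 0.5 and genes whose mean count reached 20. Exact 95% intervals and a count threshold of 1.5-fold describe these libraries, and no test across conditions was possible. DESeq2 1.42.0 gave size factors as an alternative. The ratio step was tested on simulated data.

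The members and lists were chosen with earlier results of these data known. Named were all members, their transcripts at 0.1 TPM or more in a library and each neighbouring gene. From each of the 14 lists the 3 of highest TPM, the highest one not detected and the 2 of largest ratio among genes whose mean count reached 100 were named. Fgf8, Fgf18, Wnt1, Pax7, Nkx2-1, Lef1, Rax, Ptf1a, Crx, Rpe65, Tyrp1, Hmx3 and Dlx5 were named outside that rule after their values were seen. Some list genes that the rule names are not reported here. The list of choroid plexus genes without Otx2 was also added then.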

Additional observations from a re-analysis of the deposited data

How the results depend on the processing

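The direction of every member's ratio was the same under 7 scalings, and the range of log2 values was -1.22 to -0.87 for En1, -1.29 to -0.48 for En2, -1.21 to -0.59 for Otx1, -0.95 to -0.68 for Otx2, 0.25 to 0.39 for Gbx1 and 0.04 to 0.17 for Gbx2. Scaling to spike-in totals moved the median gene by -0.11 and put Gbx2 at 0.0445. From TPM with a pseudocount of 1 the ratio was -0.48 for En2, -0.59 for Otx1 and -0.68 for Otx2, and with a pseudocount of 0.1 it was -0.70 for Otx2. Members lower in replicate 2 by 1.5-fold numbered 4, and 3 with a pseudocount of 1 or a mean count minimum of 100. Detected members numbered 4 to 6. List genes higher in replicate 2 numbered 13, and 4 at a mean count minimum of 100, where fewer genes are compared. Rescaled over protein-coding genes, mean TPM was 7.94 for Gbx1 and 41.8 for Gbx2, and mean FPKM was 3.87 for Gbx1, 20.3 for Gbx2 and 14.1 for Otx2. Otx1-201 held 83.33% by posterior means, against 88.05% by TPM. By estimated counts, which are not corrected for length, En1 held 81.85%, Gbx1 26.73% and Otx1 13.25% of its pair. Apart from these values the cause of a shift was not tested.

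With 1 replicate left out, mean TPM ranged over the library values, for example 3.03 to 6.37 for En1, and detected members numbered 5 or 6. No paired analysis was possible because there is 1 group and no contrast. En2, Otx1 and the minor transcripts rest on the fewest counts and are limited most by depth.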
